A study of Homo sapiens with 11 samples.

Results

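The insulin-like growth factor (IGF) binding proteins IGFBP2, IGFBP3, IGFBP4, IGFBP5, IGFBP6 and IGFBP7, the ligand IGF2 and the receptors IGF1R, IGF2R and INSR were followed in prostate cancer cells with and without overexpression of the sialyltransferase ST6GAL1. These 10 genes were chosen by name, by matching their Entrez identifiers in both count tables, and are 10 of the 28395 genes listed there. They and the pathway lists below were chosen with earlier results of these data known. Shares called among them, given beside the shares of all genes, are therefore descriptions and cannot be read as an excess. PC3 and DU145 are established human lines derived from prostate cancer metastases, and ST6GAL1 is the enzyme that adds α2-6 linked sialic acid to N-glycans. RNA-Seq counts were available for 3 libraries of PC3 and 3 of DU145 transduced with negative control lentivirus (Lenti-ORF control), and for 3 libraries of PC3 and 2 of DU145 with stable lentiviral ST6GAL1 overexpression. All 4 groups therefore carry a lentivirus, and each line stands for itself only. The replicates are biological repeats according to the labels, with DU145 overexpression represented by replicates 2 and 3. The methods of the study do not say that the repeats were transduced separately. An effect of ST6GAL1 and a difference between the derived cell populations therefore cannot be told apart.

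IGFs are secreted growth factors that act through IGF1R, a receptor tyrosine kinase closely related to the insulin receptor INSR, and signal to PI3K, AKT and MAPK. In the extracellular space most IGF is held by IGF binding proteins, which can keep the ligand from its receptor or deliver it after cleavage by proteases, and several of which also act without IGF. IGF2R clears IGF2 from the cell surface and carries mannose 6-phosphate tagged enzymes to lysosomes, and in prostate cancer IGF signalling has been studied as a driver of growth and of survival in bone, a tissue rich in IGFs.

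The libraries held between 13194485 and 18201359 counts on genes, so that a count of 3, used here as the floor, corresponded to 0.165 to 0.227 CPM (counts scaled to library size), and both floors and intervals cover counting error only. ST6GAL1 itself was read at 33 to 53 counts in PC3 control and 490 to 575 in PC3 overexpression libraries, and at 152 to 216 against 5350 and 5376 counts in DU145. CTNNA1, which is deleted in PC3, was read at 16 to 25 counts per library in PC3 and 7509 to 9886 in DU145, and KLK2 and KLK3, androgen responsive genes of the prostate, were at 0 in every library. All 5 epithelial markers exceeded the floor in each group. Their summed level was 864 to 899 normalized CPM (scaled by TMM library factors) in PC3, whereas in DU145 it was 1301 to 1339 in control and 1043 to 1175 in overexpression libraries, and its part in the DU145 results was not tested. Of the fibroblast markers (5), leukocyte markers (5) and endothelial markers (4), at most 3 of a list exceeded the floor in any group. Fibroblast markers summed to 29.1 to 36.0 CPM in PC3 and 3.16 to 7.33 in DU145, leukocyte markers to 20.1 to 22.4 and 54.3 to 61.8, and endothelial markers to 12.2 to 14.7 and 0.571 to 2.01, and CD3E was at 0 throughout. In bulk RNA a change of level in every cell and a change in the number of cells that express a gene cannot be told apart.

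With ST6GAL1 overexpression 3 of 8 members tested passed the test described below in PC3, beside 5.38% of all genes, and 2 of 7 in DU145, beside 8.94%. Of these 5 members 4 were binding protein genes, as are most of the members followed here. The 250 bases before the annotated RefSeq start of these 4 genes are given here, 5′ to 3′ on the strand of the gene, in GRCh38.p14. Which start is used in PC3 or DU145 was not examined. Capitals mark the letters TATAAA (known as the TATA box) or GGGCGG (known as the GC box) found on either strand, so that a match on the opposite strand is shown as the reverse complement.
IGFBP2 (chr2:216632578-216632827, plus strand): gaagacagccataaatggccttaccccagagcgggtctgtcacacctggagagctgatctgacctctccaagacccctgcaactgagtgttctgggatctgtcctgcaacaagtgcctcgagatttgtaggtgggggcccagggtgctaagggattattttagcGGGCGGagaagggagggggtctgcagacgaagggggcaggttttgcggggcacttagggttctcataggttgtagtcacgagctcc
IGFBP3 (chr7:45921273-45921522, minus strand): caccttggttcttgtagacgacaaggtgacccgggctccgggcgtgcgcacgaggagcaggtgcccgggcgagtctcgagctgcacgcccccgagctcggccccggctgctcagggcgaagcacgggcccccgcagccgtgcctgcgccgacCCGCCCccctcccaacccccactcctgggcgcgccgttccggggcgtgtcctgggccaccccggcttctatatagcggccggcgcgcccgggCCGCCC
IGFBP4 (chr17:40443200-40443449, plus strand): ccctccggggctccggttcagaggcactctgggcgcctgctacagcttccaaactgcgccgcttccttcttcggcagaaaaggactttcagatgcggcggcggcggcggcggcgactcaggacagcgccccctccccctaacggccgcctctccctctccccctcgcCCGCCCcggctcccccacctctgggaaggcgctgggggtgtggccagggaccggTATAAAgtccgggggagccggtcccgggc
IGFBP5 (chr2:216695550-216695799, minus strand): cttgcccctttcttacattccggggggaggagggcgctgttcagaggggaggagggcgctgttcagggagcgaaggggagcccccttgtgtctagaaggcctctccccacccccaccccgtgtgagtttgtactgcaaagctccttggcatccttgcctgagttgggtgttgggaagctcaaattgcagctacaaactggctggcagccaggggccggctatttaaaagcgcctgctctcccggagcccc
The IGFBP4 window held a TATA box that began at position -29, counted back from the start, and a GC box at -83. The window of IGFBP3 held GC boxes at -98 and -6, that of IGFBP2 a GC box at -86, and that of IGFBP5 neither of these exact letters. Variants of the letters were not searched for, such as tatatag in the IGFBP3 window and tatttaaa in that of IGFBP5. The absence of a match is therefore not the absence of such an element. Of 35116 promoter windows of this length, 10.7% held these TATA letters and 42.6% these GC box letters. The GC content was 76.0% for IGFBP3, 71.6% for IGFBP4, 61.2% for IGFBP5 and 56.8% for IGFBP2, beside a median of 58.0% over all windows. IGFBP2 has more than a single start in RefSeq, and its first was used. No RefSeq window of IGF2 or IGFBP7 was used here.

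To ask which members of the system each line uses, levels were compared per length, as RPKM, in which reads are scaled to exon length and library size. IGFBP4, which binds IGFs and is generally an inhibitor of their action, was the most abundant member in all 4 groups. In PC3 control cells IGFBP4 stood at 1005.4 ± 43.1 RPKM (SD, n = 3), followed by IGFBP6, a binding protein with a preference for IGF2, at 31.2 ± 1.92, and IGFBP5, a binding protein abundant in bone matrix, at 11.8 ± 0.610. IGF2R was at 8.49 ± 0.171 RPKM, IGFBP3, the main carrier of IGF in serum, at 7.41 ± 0.340, IGF1R at 3.90 ± 0.0995 and INSR at 2.85 ± 0.164. IGF2 was at 0.449 ± 0.0788 RPKM and IGFBP2 at 0.0635 ± 0.0209. No 2 neighbours in this order overlapped between libraries in PC3 control cells.

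The order in DU145 control cells differed, with IGF2R and IGF1R nearer the top. IGFBP4 again came first at 60.9 ± 3.30 RPKM (SD, n = 3). IGFBP6 at 16.9 ± 0.526, IGF2R at 16.0 ± 1.16 and IGF1R at 14.2 ± 1.18 followed, and each overlapped its neighbour in the order. IGFBP2, a binding protein often raised in prostate cancer, was at 4.39 ± 0.450 RPKM, and INSR at 2.95 ± 0.258 and IGFBP3 at 2.81 ± 0.381 overlapped each other. IGF2 was at 0 counts in all 5 DU145 libraries, IGFBP5 was read at 0 to 3 counts per library and IGFBP7 had 1 count in all, so these genes lay at or under the floor in DU145. IGFBP7, a distant relative with low affinity for IGF, was at 0 counts in all 6 PC3 libraries, and IGFBP1, the remaining binding protein of this family, was read at 1 to 4 counts per PC3 library and at 0 in DU145.

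The middle of both orders depended on the length given to each gene, here the union of all annotated exons. IGFBP2 has 4742 bases of exon but 1414 in its longest coding transcript, and with the latter stood at 14.7 ± 1.51 RPKM in DU145 control cells (SD, n = 3), beside 16.1 ± 1.34 for IGF1R. With the same lengths IGF2R came second in DU145 control cells at 25.7 ± 1.86 RPKM, and in PC3 control cells IGF2R at 13.7 ± 0.275 and IGFBP3 at 12.9 ± 0.590 stood above IGFBP5 at 12.2 ± 0.633. IGFBP4 kept its place at the top in all 4 groups.

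**Figure D1:**
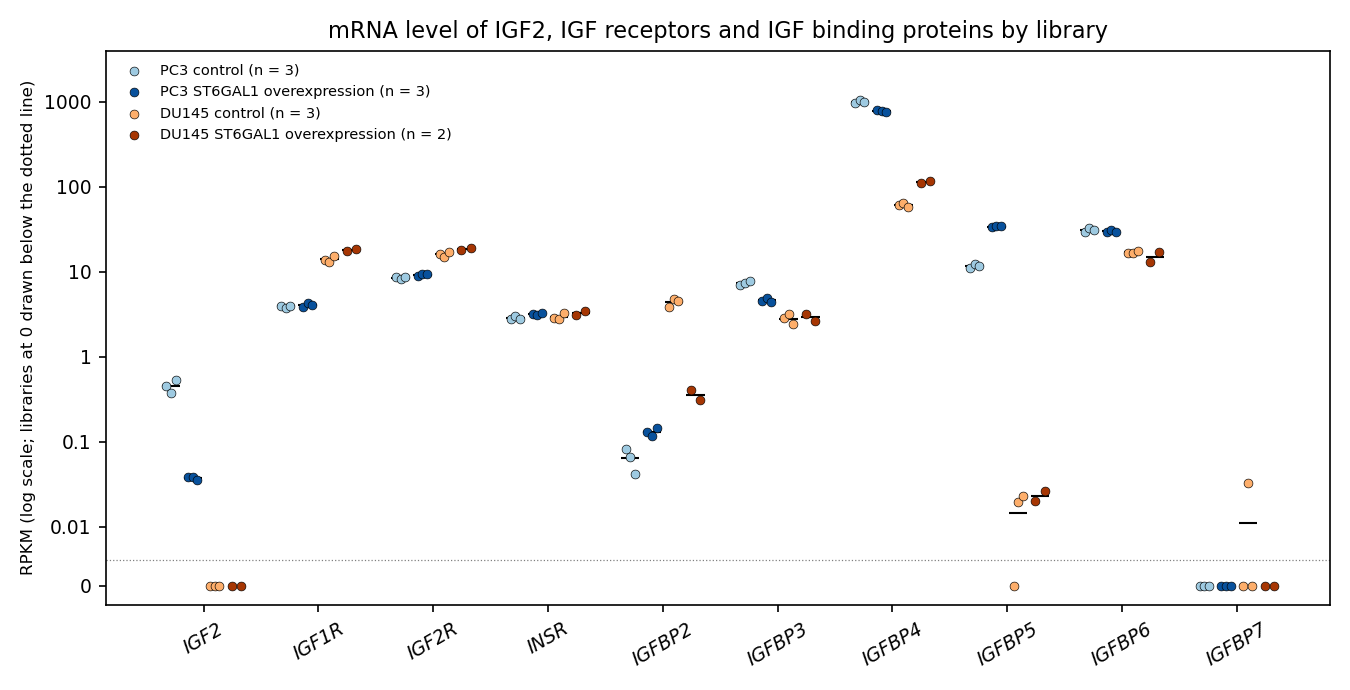
Level of each of the 10 genes in every library, in RPKM on a log axis, with libraries at 0 drawn below the dotted line; points are libraries coloured by group, and black bars are group means. IGFBP4 is the highest gene in each group, at 1005.4 RPKM in PC3 control and 60.9 in DU145 control cells, and IGF2 is at 0 in all DU145 libraries.

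Between the control cells of the lines, 8 of the 9 members tested differed, where 64.6% of all 14246 genes tested did. A gene was called different at a Benjamini-Hochberg adjusted p under 0.05 from edgeR's quasi-likelihood test and an absolute log2 fold change over 0.58. IGFBP4, IGFBP5, IGFBP3, IGFBP6 and IGF2 were higher in PC3, while IGF1R, IGF2R and IGFBP2 were higher in DU145. The log2 difference (PC3 minus DU145) was 4.04 for IGFBP4 (standard error 0.0586), 1.39 for IGFBP3 (standard error 0.0861) and 0.88 for IGFBP6 (standard error 0.0697). It was -6.06 for IGFBP2 (standard error 0.193), which rests on 3 to 7 counts per PC3 control library, -1.86 for IGF1R (standard error 0.0569) and -0.92 for IGF2R (standard error 0.0501). The largest adjusted p among these 6 genes was 2.91e-12, for IGFBP6, from edgeR's quasi-likelihood test.

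Genes near 0 in a line were also compared by summed counts at equal depth. For IGFBP2 these were 922 in DU145 control and 15 in PC3 control libraries, a ratio of 68.1 (95% exact binomial interval 41.0 to 122). For IGFBP5 the summed counts were 3721 in PC3 control and 4 in DU145 control libraries, a ratio of 840.2 (interval 328 to 3085). IGF2, with 157 summed counts in PC3 control libraries, was at least 15.7-fold higher there than the floor of 3 counts per library in DU145. INSR did not pass the test, with a log2 difference of -0.05 (standard error 0.0729, edgeR quasi-likelihood test with adjusted p = 0.532). Line and sequencing run may coincide, and cannot be told apart in this comparison.

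Between overexpression and control cells 3 members were called in PC3. IGFBP5 rose, and IGFBP3 and IGF2 fell, out of 8 members tested, where 5.38% of the 13544 genes tested were called. By adjusted p alone 6 of the 8 passed, where 37.3% of all genes did, so the added members IGFBP4, IGF2R and INSR had fold changes under the threshold. The members in PC3 had a median log2 fold change of 0.0058, beside -0.0016 over all genes tested.

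IGFBP5 was read at 72.1, 80.2 and 76.2 normalized CPM in PC3 control libraries 1 to 3 and at 217.8, 221.8 and 222.5 in the overexpression libraries. The overexpression libraries lay close together and far above every control library. This is a 2.90-fold rise, a log2 fold change of 1.54 (standard error 0.0354, edgeR quasi-likelihood test with adjusted p = 9.77e-32). In DU145 IGFBP5 had 4 counts in all control libraries and 5 in all overexpression libraries, a ratio of 1.66 with an exact interval of 0.356 to 8.34, so a change was not detectable at this depth. The IGFBP5 exons share 487 bases with those of DIRC3-AS1 on the opposite strand.

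IGF2, the fetal growth factor of this system, lies on the minus strand of chromosome 11 at 2129117 to 2149566 in GRCh38. It was read at 57, 42 and 58 counts in PC3 control libraries and at 4, 5 and 4 counts in the overexpression libraries. The groups did not overlap, and the overexpression libraries lay just above the floor of 3 counts. In normalized CPM this was 3.21 ± 0.564 against 0.267 ± 0.0126 (SD, n = 3 each). The log2 fold change was -3.55 (standard error 0.310, edgeR quasi-likelihood test with adjusted p = 1.71e-12) or 11.7-fold lower. IGF2 exons share 2711 bases, 37.9% of their length, with ENSG00000284779, an unnamed coding gene on the same strand whose counts were not analysed here. They share 1460 bases, or 20.4%, with the read-through gene INS-IGF2, also on the same strand, and 333 bases with IGF2-AS on the opposite strand. INS-IGF2 was at 0 counts in every library and IGF2-AS at 0 or 1 count in each PC3 library, and the part of these overlaps in the IGF2 counts was not tested. H19, the imprinted neighbour of IGF2, was not tested because of low counts.

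IGFBP3 was read at 32.2, 34.1 and 35.4 normalized CPM in PC3 control libraries and at 21.0, 22.4 and 20.2 in the overexpression libraries. Each overexpression library was below each control library. The log2 fold change was -0.67 (standard error 0.0633, edgeR quasi-likelihood test with adjusted p = 1.52e-11), or 1.59-fold lower.

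IGFBP4 was lower in PC3 overexpression libraries by less than the fold change threshold, from 2126.4, 2322.1 and 2212.7 normalized CPM to 1756.2, 1736.7 and 1697.7. The groups did not overlap, and the log2 fold change was -0.36 (standard error 0.0253, edgeR quasi-likelihood test with adjusted p = 3.86e-15). IGF2R and INSR had log2 fold changes of 0.13 (standard error 0.0308, edgeR quasi-likelihood test with adjusted p = 0.000873) and 0.15 (standard error 0.0578, with adjusted p = 0.040), also under the threshold. IGF1R at 0.06 (standard error 0.0469) and IGFBP6 at -0.05 (standard error 0.0539) did not pass, with overlapping groups. IGFBP2 in PC3 had 3 to 7 counts per control library and 9 to 11 per overexpression library and was removed by the filter on low counts. Without the filter its log2 fold change was 0.99 (edgeR quasi-likelihood test with adjusted p = 0.135), and the ratio of summed counts was 2.01 with an exact interval of 1.05 to 4.03.

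In DU145 2 members were called between overexpression and control cells. IGFBP4 rose and IGFBP2 fell, out of 7 members tested, where 8.94% of the 13676 genes tested were called. By adjusted p alone IGF1R passed as well, giving 3 of 7, where 20.1% of all genes did. The members tested in DU145 had a median log2 fold change of 0.16, beside -0.0016 over all genes tested. DU145 libraries varied more than those of PC3, with a biological coefficient of variation of 0.0817 against 0.0226. The 2 DU145 overexpression libraries differed most. The chi-square of counts between libraries of a group, per degree of freedom, was 13.3 for them. It was 2.71 to 5.46 among DU145 control libraries and 1.39 to 2.48 within the PC3 groups.

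IGFBP2 was read at 279, 355 and 288 counts in the DU145 control libraries, or 18.4, 22.4 and 21.5 normalized CPM. Both overexpression libraries were far lower, with 30 and 26 counts, or 1.94 and 1.45 normalized CPM. The log2 fold change was -3.62 (standard error 0.186, edgeR quasi-likelihood test with adjusted p = 2.37e-08), or 12.3-fold lower. Per length, IGFBP2 in DU145 overexpression cells was at 0.408 and 0.306 RPKM, above the 0.041 to 0.083 RPKM of the PC3 control libraries.

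IGFBP4 was read at 132.8, 141.2 and 127.1 normalized CPM in DU145 control and at 244.3 and 254.9 in DU145 overexpression libraries. The groups did not overlap. The log2 fold change was 0.90 (standard error 0.0742, edgeR quasi-likelihood test with adjusted p = 1.86e-06), or 1.87-fold higher.

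IGF1R, the signalling receptor for IGFs, was read at 191.8, 183.0 and 215.0 normalized CPM in DU145 control and at 243.5 and 257.5 in overexpression libraries. The groups did not overlap, and the log2 fold change of 0.35 (standard error 0.0816, edgeR quasi-likelihood test with adjusted p = 0.00768) was under the fold change threshold. IGF2R had a log2 fold change of 0.22 (standard error 0.0801, edgeR quasi-likelihood test with adjusted p = 0.0704) with groups that did not overlap, and INSR of 0.16 (standard error 0.103, adjusted p = 0.314 from the same test) with groups that did. IGFBP3 and IGFBP6 did not pass. IGFBP3 was read at 12.97, 14.39 and 10.96 normalized CPM in control and at 14.7 and 12.0 in overexpression libraries, a log2 fold change of 0.06 (standard error 0.148), and its sign turned without control replicate 3 (-0.05) or overexpression replicate 2 (-0.11). IGFBP6 had a log2 fold change of -0.16 (standard error 0.123), and of 0.0038 without overexpression replicate 2.

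**Figure D2:**
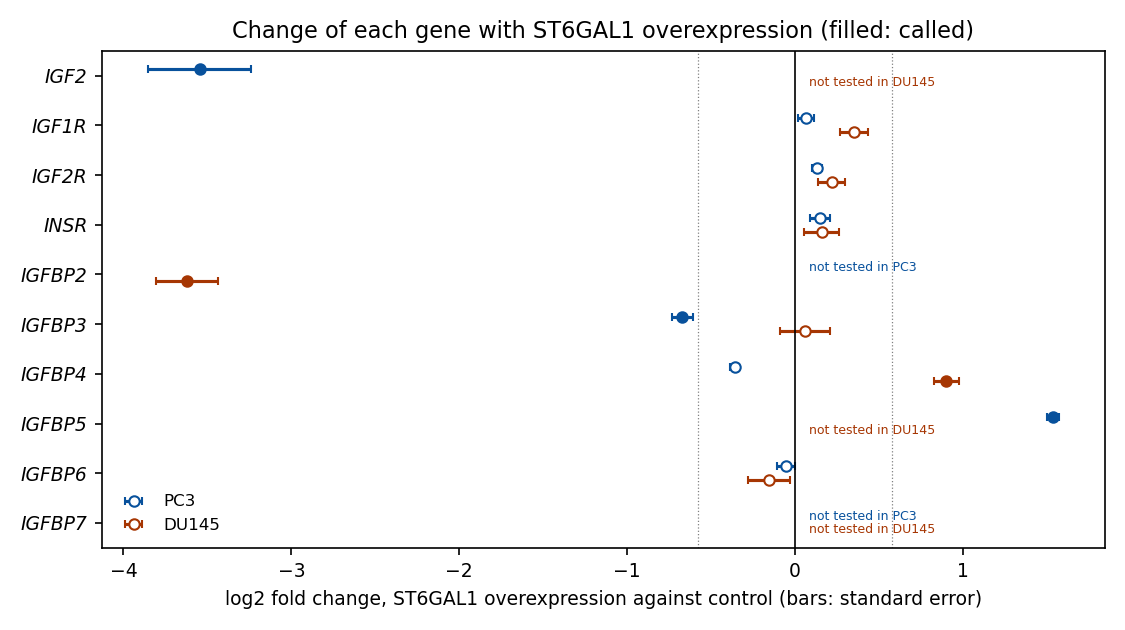
Log2 fold change of each gene with ST6GAL1 overexpression against control in PC3 (blue) and DU145 (brown), with bars of 1 standard error, dotted lines at the threshold of 0.58 either way and filled points for called genes. IGFBP5 at 1.54, IGFBP3 at -0.67 and IGF2 at -3.55 are called in PC3, and IGFBP4 at 0.90 and IGFBP2 at -3.62 in DU145.

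Whether the change differed between the lines was tested directly as an interaction over all 11 libraries, which uses the same libraries as the comparisons within each line. It was called for 3 of 9 members tested, where 8.72% of the 14952 genes tested were called. The level of ST6GAL1 reached also differed, at 31.8 to 33.4 normalized CPM in PC3 and 298 and 348 in DU145 overexpression libraries, a 12.0-fold rise in PC3 and a 25.0-fold rise in DU145. The difference of its log2 fold changes was 1.06 (standard error 0.179, edgeR quasi-likelihood test with adjusted p = 0.000286), and its part in the differences between the lines was not tested. The log2 fold change in DU145 exceeded that in PC3 by 1.25 for IGFBP4 (standard error 0.0752, edgeR quasi-likelihood test with adjusted p = 8.49e-10), which had opposite signs in the lines. For IGFBP2 the difference was -4.62 (standard error 0.458, edgeR quasi-likelihood test with adjusted p = 5.22e-07), with the low PC3 counts given above on its side of the contrast. For IGFBP3 it was 0.72 (standard error 0.148, edgeR quasi-likelihood test with adjusted p = 0.00162), and 0.56 without DU145 overexpression replicate 2, which is under the fold change threshold (adjusted p = 0.00791). The difference for IGF1R was 0.28 (standard error 0.0905, edgeR quasi-likelihood test with adjusted p = 0.0328), under the threshold. By adjusted p alone 4 of the 9 members passed, where 19.7% of all genes did.

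The remaining members did not pass in the interaction. IGF2R had a difference of 0.09 (standard error 0.0776), IGFBP6 of -0.10 (standard error 0.126) and INSR of 0.0079 (standard error 0.109), and the last changed sign with several settings. IGF2 and IGFBP5 are at or under the floor in DU145, so the test of their difference carries no information on that line.

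The binding proteins were next taken as a pool, by summing the RPKM of IGFBP1 to IGFBP7 in each library. The pool was 1055.9 ± 45.7 RPKM in PC3 control and 852.0 ± 13.5 in PC3 overexpression cells (SD, n = 3 each), and the libraries of these groups did not overlap. In DU145 it was 85.0 ± 3.49 in control (SD, n = 3) and 131.5 ± 6.11 in overexpression cells (SD, n = 2), again without overlap. The summed level thus moved in opposite directions in the lines, as did IGFBP4, which made up most of it. These are descriptions, since an exact permutation of 3 against 3 libraries has a smallest p of 0.1.

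IGFBP4 made up 95.2% ± 0.0754 of the pool in PC3 control and 91.9% ± 0.200 in PC3 overexpression cells (SD, n = 3 each). The share of IGFBP5 in PC3 went from 1.11% ± 0.0101 to 4.00% ± 0.105. With overexpression the mean level of IGFBP5 passed that of IGFBP6, at 34.1 against 29.9 RPKM. By the longest coding transcript these means were 35.3 and 34.2 RPKM, and the libraries of these genes overlapped. In DU145 the share of IGFBP4 went from 71.6% ± 1.16 (SD, n = 3) to 86.1% ± 1.07 (SD, n = 2). IGFBP2 went from 5.17% ± 0.464 to 0.273% ± 0.0674 of the DU145 pool, and IGFBP6 from 19.9% ± 1.31 to 11.4% ± 1.55, although IGFBP6 itself did not pass the test. These shares depend on the length assigned to each gene. With the longest coding transcript in place of all exons, IGFBP4 made up 61.0% of the pool in DU145 control and 82.8% in DU145 overexpression cells, and IGFBP2 made up 14.7% ± 1.20 (SD, n = 3) and 0.880% ± 0.215 (SD, n = 2).

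The ratio of IGF1R to INSR, receptors that can form hybrids with each other, was 1.37 ± 0.109 in PC3 control and 1.29 ± 0.0990 in PC3 overexpression cells (SD, n = 3 each, RPKM over RPKM). Libraries of these groups overlapped. In DU145 the ratio was 4.80 ± 0.0211 in control (SD, n = 3) and 5.49 ± 0.0869 in overexpression cells (SD, n = 2), with no overlap.

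IGFBP2 and IGFBP5 lie side by side on chromosome 2, with 7668 bases between them and opposite strands, at 216632828 to 216664436 and 216672105 to 216695549. In PC3 IGFBP5 rose while IGFBP2 was near the floor, and in DU145 IGFBP2 fell while IGFBP5 was near it. The 10 nearest tested genes, 5 on each side, had a median log2 fold change of -0.05 around IGFBP5 in PC3, from -0.73 to 0.07. Among them MARCHF4 was called lower. Around IGFBP2 in DU145 their median was -0.08, from -1.42 to 0.27, and TNS1 was called lower. No neighbour on this stretch was called in the direction of IGFBP5 in PC3, and in DU145 TNS1 was called in that of IGFBP2.

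The other called members also stood within neighbourhoods of small median change. The 10 tested neighbours of IGF2 on chromosome 11 in PC3 had a median log2 fold change of 0.15, from -0.21 to 0.63, with 0 called by edgeR's quasi-likelihood test and fold threshold. CTSD, a lysosomal protease among them, was at 0.21, and KCNQ1OT1, an imprinted RNA, at 0.40. IGFBP3 on chromosome 7 in PC3 had a neighbour median of -0.0027. Among these neighbours ADCY1 (-0.88) and UPP1 (-0.59) were called lower, in the direction of IGFBP3 (-0.67), and ADCY1 by more. IGFBP4 on chromosome 17 in DU145 had a neighbour median of 0.08, with TNS4 called higher (log2 fold change 1.82) and KRT15 called lower (-0.97).

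The genes that act on binding proteins outside the cell were read next, from a list of 17 proteases of IGFBPs and their inhibitors. Like the other lists, it was chosen with earlier results of these data known, so its share called is a description only. In DU145 7 of 12 tested were called, 5 higher and 2 lower, where 8.94% of all genes were (6.12% to 14.9% with a library left out), and the median log2 fold change was 0.53, beside -0.0016 over all genes tested. HTRA1, a secreted serine protease that cleaves several IGFBPs, rose from between 37.9 and 41.0 normalized CPM in control libraries to 73.7 and 80.3, a log2 fold change of 0.96 (standard error 0.0858, edgeR quasi-likelihood test with adjusted p = 3.64e-06). ADAM12, a membrane metalloproteinase that cleaves IGFBP3 and IGFBP5, rose from 42 or 44 counts per control library to 146 and 158, a log2 fold change of 1.66 (standard error 0.166, edgeR quasi-likelihood test with adjusted p = 9.34e-06). PAPPA2, a metalloproteinase that releases IGF from IGFBP5 and IGFBP3, rose from between 4 and 8 counts per control library to 33 and 50, a log2 fold change of 2.67 (standard error 0.352, edgeR quasi-likelihood test with adjusted p = 0.000112). STC1, a stanniocalcin that inhibits the related protease PAPPA, fell by 1.38 on the log2 scale (standard error 0.135, edgeR quasi-likelihood test with adjusted p = 7.86e-06). STC2, the other stanniocalcin in the list, went the other way, under the fold change threshold. Its log2 fold change was 0.51 (standard error 0.0951, edgeR quasi-likelihood test with adjusted p = 0.00184). PAPPA itself was not among the genes tested in DU145. The complement proteases C1R and C1S were also called higher and the plasminogen activator PLAT lower. The call of C1R was lost without control replicate 2 (log2 fold change 0.61, edgeR quasi-likelihood test with adjusted p = 0.0565) and without overexpression replicate 2 (0.50, under the threshold).

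In PC3 3 of 11 tested genes of this list were called, beside 5.38% of all genes. C1S, which can cleave IGFBP5, rose from 4.36, 5.70 and 5.75 normalized CPM in control to 11.7, 15.5 and 13.6 in overexpression libraries, a log2 fold change of 1.39 (standard error 0.116, edgeR quasi-likelihood test with adjusted p = 5.24e-13). C1R, which activates C1S, rose by 0.96 on the log2 scale (standard error 0.0721). PLAU, the plasminogen activator urokinase, fell by 0.73 on the log2 scale (standard error 0.0233), from between 1053 and 1064 normalized CPM in control libraries to between 630.3 and 643.8. ADAM12, called higher in DU145, had a log2 fold change of -0.32 in PC3 (standard error 0.0908), under the threshold.

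Proteins with an IGFBP-like N-terminal domain but other roles were called in 3 of 8 tested in PC3, beside 5.38% of all genes, and 3 of 9 in DU145, beside 8.94%. CCN1, a matricellular integrin ligand, fell in PC3 by 0.68 on the log2 scale (standard error 0.0374), from between 492 and 525 normalized CPM to between 303 and 343. ESM1, an endothelial proteoglycan, fell by 0.63 (standard error 0.0958), and by 0.56, under the threshold, without PC3 control replicate 1. HTRA3, a protease related to HTRA1, fell by 0.62 (standard error 0.197), and lost its call without control replicate 3 (-0.48), overexpression replicate 2 (-0.53) or overexpression replicate 3 (-0.57), and with DESeq2 (adjusted p = 0.0728). In DU145 IGFBPL1, an IGFBP-like protein that was at 0 counts in all PC3 libraries, fell from 136.7, 143.7 and 139.7 normalized CPM to 69.6 and 67.7, a log2 fold change of -1.03 (standard error 0.0761, edgeR quasi-likelihood test with adjusted p = 6.80e-07). KAZALD1 fell in DU145 by 0.64 (standard error 0.134), and by 0.57 without overexpression replicate 2, and HTRA1 rose as given above. In PC3 KAZALD1 was at 0.57, just under the threshold, which it passed in 4 of the 6 fits that left out a library. IGFBPL1 was at least 762-fold higher in DU145 control than the floor of 3 counts per library in PC3.

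Downstream of the receptors, a list of 36 adaptors and PI3K-AKT components had 1 of 34 tested genes called in PC3 and 1 of 35 in DU145, beside 5.38% and 8.94% of all genes. In PC3 this was PIK3R3, a regulatory subunit of PI3K, which rose from between 37.2 and 39.6 normalized CPM to between 55.3 and 63.6, a log2 fold change of 0.63 (standard error 0.0516, edgeR quasi-likelihood test with adjusted p = 2.46e-13). In DU145 it was FOXO4, a transcription factor held back by AKT, which rose from between 17.0 and 19.7 normalized CPM to 29.97 ± 0.0457 (SD, n = 2). Its log2 fold change was 0.68 (standard error 0.108, edgeR quasi-likelihood test with adjusted p = 0.000557). The median over the tested genes of the list was 0.06 in PC3 and 0.08 in DU145 (log2 fold change). By adjusted p alone 13 of the 34 passed in PC3, beside 37.3% of all genes, and 8 of the 35 in DU145, beside 20.1%. Just under the fold change threshold were PHLPP1 in PC3 at 0.579 (standard error 0.0371) and PTPN1 in DU145 at 0.56 (standard error 0.0741). PTPN1 was also called in the interaction.

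Of the genes that bind IGF2 mRNA or process its product, 1 of 5 tested was called in PC3 and 1 of 6 in DU145, with the same shares of all genes as background. IGF2BP3, an RNA-binding protein of IGF2 mRNA, fell in DU145, where IGF2 is at 0, from between 31.6 and 33.8 normalized CPM to 20.9 and 18.5, a log2 fold change of -0.73 (standard error 0.106, edgeR quasi-likelihood test with adjusted p = 0.000238). PCSK5, a proprotein convertase, fell in PC3 by 0.67 on the log2 scale (standard error 0.182), from between 50 and 71 counts to between 35 and 41. Of the other ligands, carriers and receptors of the system, TMEM219, a receptor for IGFBP3, and M6PR, the smaller mannose 6-phosphate receptor, were tested in both lines and did not pass in either, and IGFBPL1, tested in DU145 alone, was called there. Over all 5 lists, which hold 81 genes other than the 10 members, 8 of 59 tested were called in PC3, beside 5.38% of all genes, and 11 of 63 in DU145, beside 8.94%. In the interaction 9 of 65 were called, beside 8.72%.

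Each called member was finally compared with all other expressed genes by the shape of its level over the 11 libraries, as the root mean square difference of centred log2 normalized CPM. For IGFBP4 the closest genes were AOX1 at 0.0918 and CLDN11 at 0.167, beside a median of 1.80 over 10834 genes. IGFBP3 lay closest to ZNF185 at 0.133 and CCN1 at 0.136, with a median of 0.696. IGFBP5 lay closest to FABP4 at 0.406 and SSTR5-AS1 at 0.453, with a median of 4.598. For IGFBP2 and IGF2 even the nearest genes were farther off, at 0.734 for SCNN1A and 0.855 for FBLN5 (median 2.27 for IGFBP2), and at 0.909 for ADGRG1 and 0.920 for FUT8-AS1 (median 1.97 for IGF2). IGF2 and IGFBP5 are at or under the floor in all DU145 libraries, and IGFBP2 is at 3 to 11 counts in those of PC3. Libraries of both lines enter each value, so the difference between the lines is part of it.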

How the data were processed

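Samples were grouped by cell line and lentivirus from their labels. Per the methods of the study, reads (75 bp, single end) were trimmed (Cutadapt) and aligned to hg38 (HISAT2), and the authors deposited featureCounts counts per Entrez gene without normalization. The library kit is stranded, and the annotation and strand setting used for counting are not given in the sources used here, so overlapping genes were not separated.

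From the counts, each comparison was fitted with edgeR 4.0.16 in R 4.3.3 (filterByExpr, TMM, robust glmQLFit and the quasi-likelihood test), adjusted over all genes tested and called where the adjusted p was below 0.05 and the log2 fold change exceeded 0.58 in size. Standard errors were derived from the fold change and the F statistic. RPKM used TMM library sizes and the union of GENCODE v44 exons in place of the planned RefSeq exons. Names matched 97.7% of the genes, and promoter windows are RefSeq's (GRCh38.p14). Alternatives were limma-voom (limma 3.58.1), DESeq2 1.42.0, RLE factors, no filter, the longest coding transcript, each replicate left out and the replicate number as a block. Named genes were the 10 members, IGFBP1 and ST6GAL1, pathway genes called in either line with values for at most 4 per list and line, tested neighbours of called members, and the 2 nearest genes by likeness. Some list genes that were not called in either line are named as well. The members and lists were chosen with earlier results of these data known. The fits were tested on simulated data. Protein sequences were not analysed here.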

Additional observations from a re-analysis of the deposited data

Results flagged for a closer look

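The change with ST6GAL1 overexpression was not the same in PC3 and DU145 for 3 members, for 9 pathway genes and for ST6GAL1. This was by the test of the difference itself over all 11 libraries (edgeR's quasi-likelihood test). Over the pathway lists 9 of 65 genes tested were called, beside 8.72% of all genes. Values are differences of log2 fold changes, DU145 minus PC3. ST6GAL1 itself had a difference of 1.06, with a 12.0-fold rise in PC3 and a 25.0-fold rise in DU145, so the lines differ in the amount of overexpression, and its part in the other differences was not tested. IGFBP4 had a difference of 1.25, with log2 fold changes of 0.90 in DU145 and -0.36 in PC3. IGFBP2 had a difference of -4.62, where the PC3 side rests on 3 to 11 counts per library. For IGFBP3 the difference was 0.72, and 0.56 without DU145 overexpression replicate 2, which is under the fold change threshold. Among the binding protein proteases and their inhibitors, ADAM12 had a difference of 1.97, STC1 of -1.15 and PLAT of -1.99. KAZALD1, with an IGFBP-like domain, had a difference of -1.21, as its log2 fold change was 0.57 in PC3 and -0.64 in DU145, where the PC3 value passed the threshold in 4 of the 6 fits that left out a library (0.58 to 0.60). PIK3R3 had a difference of -0.96 and IGF2BP3 of -0.84. PTPN1 and the proprotein convertases FURIN and PCSK6 were also called. FURIN had a difference of -0.58 (standard error 0.174), just past the threshold. PCSK6 had a difference of -3.97 (standard error 1.17), and was removed by the filter on low counts in PC3 alone. Of the genes that bind IGF2 mRNA or process its product, 3 of 7 tested were thus called, beside 8.72% of all genes.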

How the results depend on the processing

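The number of members called was 3 in PC3, 2 in DU145 and 8 between control lines under every alternative run. In the interaction it was 3, except 4 with limma-voom, where IGF2 was added although DU145 holds no IGF2 counts, and 2 without DU145 overexpression replicate 2. Over all genes, leaving out a library gave 830 to 2072 calls in DU145 and 1148 to 2270 in the interaction, the highest counts without DU145 overexpression replicate 3, and the cause was not tested. The share of IGFBP4 in the summed binding protein level was 94.3% and 93.6% in PC3 control, 90.9% and 85.9% in PC3 overexpression, 61.0% and 70.4% in DU145 control and 82.8% and 87.6% in DU145 overexpression cells, with the longest coding transcript and with CPM undivided by length, respectively.

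Values close to 0 that had not passed the test changed sign when a library was left out, over ranges of -0.11 to 0.20 for IGFBP3, -0.35 to 0.0038 for IGFBP6 and -0.25 to 0.14 for HTRA3 in DU145, -0.32 to 0.055 for IGFBP6 and -0.063 to 0.074 for INSR in the interaction, and -0.10 to 0.017 for INSR and -0.011 to 0.057 for PIK3R3 between control lines. With the replicate number as a block the difference of INSR was -0.014. To look for pairing, the deviations of each library from its group mean, gene by gene, were correlated between control and overexpression libraries. These are not correlations of the levels themselves. In PC3 the deviations of same-numbered libraries correlated at 0.046, 0.126 and 0.033, and not every library correlated best with its own number. In DU145, with 2 shared numbers, the deviations of same-numbered libraries correlated at 0.214 and 0.515. Those of control replicate 1, which has no partner, correlated at 0.426 with those of overexpression replicate 2. Deviations of the 2 DU145 overexpression libraries from their mean are mirror images by construction, so the DU145 values cannot show pairing. The labels name no shared batch, so the numbers were not taken as pairs in either line. The replicate block called 3 members and 740 genes in PC3, 2 and 1517 in DU145, 3 and 1452 in the interaction and 8 and 9197 between control lines. Depth limits IGF2, IGFBP5 and IGFBP7 in DU145 and IGFBP2 and IGFBP7 in PC3, and DU145 overexpression rests on 2 libraries.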
